A study of Drosophila melanogaster with 2 samples.

Results

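The glial genes described here are gcm, gcm2, repo, moody, loco, nrv2 and Nrx-IV, 7 of the 13968 protein-coding genes on the arms. They were taken by symbol from the fly annotation, each with its body and 5 kb of flanking sequence on either side. All 7 symbols were found. The binding data are chromatin immunoprecipitation and sequencing (ChIP-seq) peaks of CG8281 from a stable transgenic Drosophila melanogaster line. Its CG8281 protein is fused, at the C terminus, to green fluorescent protein (GFP), the target of the antibody. The 2 samples, biological replicates 1 and 2 of the same group, were whole embryos aged 0 to 20 hours. No second genotype, tissue or treatment was sampled, so nothing below is tested between groups. What promoter drives the tagged gene is not stated in the labels. Glia are a minority of the cells of an embryo, so strong binding in few cells and weak binding in many cannot be told apart, and no peak can be placed in glia.

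Glia of the fly embryo arise when neural progenitors switch on gcm, a zinc-coordinating transcription factor that turns cells from the neuronal to the glial fate. Its neighbour gcm2 encodes a related factor with an overlapping role, and repo, a homeodomain factor and target of Gcm, keeps lateral glia in their fate. A sheet of surface glia later seals the nerve cord as the blood-brain barrier. It needs the receptor moody, its signalling regulator loco and the septate junctions, to which nrv2 and Nrx-IV contribute.

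Of the 7 genes, moody, loco and nrv2 had a summit in the optimal list, which combines both replicates, while gcm, gcm2, repo and Nrx-IV had none. That is 42.9% (exact Clopper-Pearson 95% interval 9.9 to 81.6%), beside 38.3% of all protein-coding genes with the same window. The 3 genes held 4 of the 3921 optimal summits. Each of the 4 had the same signal and rank in the pooled list, called on both replicates together. The optimal list was derived in part from the pooled list, so this match is not independent. No other pooled summit of the windows ranked within the strongest 3921 of the pooled list. Only the summit at moody lay within 500 bp of a start site (TSS) of a member, which makes 1 of 7 genes, 14.3% (0.361 to 57.9%), beside 12.2% of all protein-coding genes. Both shares lie near the background, and intervals cover counting error only. The median window of the 7 genes was 15.8 kb long and that of all protein-coding genes 12.2 kb.

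In the longer lists of 30000 peaks each, nearly every member had summits. The pooled list, called on both replicates together, held 44 summits in 6 genes (background 77.4%), with Nrx-IV as the exception. Replicate 1 held 36 summits in all 7 genes (background 90.7%) and replicate 2 held 47 in 6 genes (background 70.4%), again without Nrx-IV. Within 500 bp of an own TSS, the pooled list had a summit at 3 genes (background 36.3%), replicate 1 at 5 (background 41.2%) and replicate 2 at 3 (background 33.8%). Signal is the authors' value per peak, on an unstated scale, and rank 1 is the strongest peak of a list. The optimal peaks reached down to a signal of 122.7. Signals are compared by rank between lists, because the scaling may differ. The lists give no read counts, so depth is unknown.

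**Figure D1:**
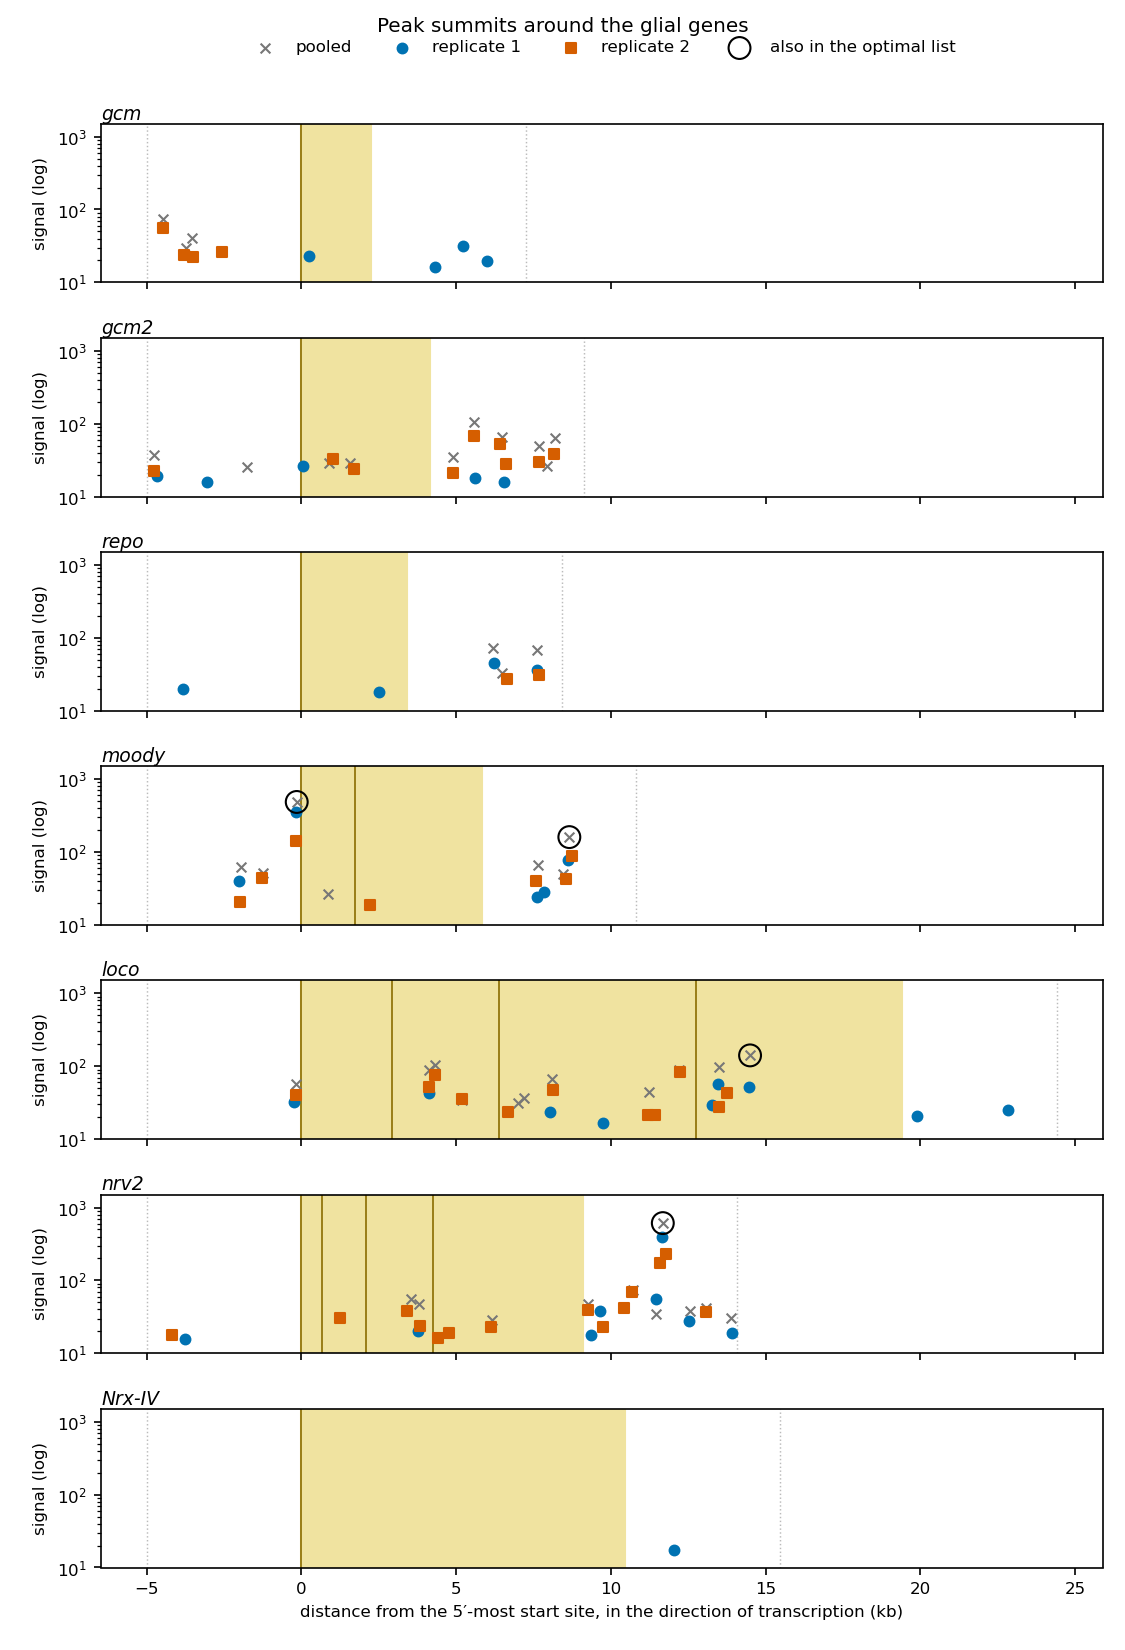
Each panel shows one gene, with distance from its 5′-most start site in kb on the x axis (positive in the direction of transcription) and peak signal on a log y axis. Yellow marks the gene body, brown lines its start sites and dotted lines the 5 kb limits. Points are summits of the pooled list and of the replicates, and rings mark the 4 optimal summits. They lie in the windows of moody (486.2, and 160.3 near usp), loco (140.8) and nrv2 (611.0, near nrv1).

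The fate regulator gcm (FBgn0014179; chr2L:9579498-9581745, minus strand) had no summit that both replicates shared. The pooled list held 3 summits, all in the upstream flank. The strongest, 4485 bp upstream of the TSS and outside any annotated gene, had a signal of 73.0 at rank 7422. There replicate 2 gave 55.1 at rank 5789 and replicate 1 had no peak. The other pooled summits, 3533 and 3744 bp upstream within lncRNA:CR43621, had signals of 41.2 and 29.8. They too overlapped a peak of replicate 2 and none of replicate 1. Replicate 2 held a further upstream summit at 2555 bp, with a signal of 26.4. Replicate 1 instead held 3 summits downstream of gcm, with signals from 16.4 to 31.4, the strongest of them 258 bp inside Mtpalpha. It also held 1 in the coding sequence of gcm, 254 bp downstream of the TSS, with a signal of 22.8 at rank 13401. All summits of replicate 2 here were upstream, and 3 of the 4 of replicate 1 were downstream. Beyond the window, the nearest optimal summit lay 9424 bp downstream, 197 bp upstream of a TSS of brwl. It had a signal of 675.4 at rank 444, with ranks of 312 in replicate 1 and 705 in replicate 2.

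At gcm2 (FBgn0019809; chr2L:9608562-9612706, plus strand), which shares the 26.8 kb interval between the genes with gcm, the pooled list was dense but weak. It held 10 summits, or 70.7 per 100 kb of window, beside 21.8 for the whole length of the arms, sequence away from genes included. Of these, 6 were downstream, 2 upstream and 2 in an intron. The strongest, 1443 bp beyond the 3′ end in an intron of the neighbour Trx2, had a signal of 103.8 at rank 4759. That is below the weakest optimal peak. Replicate 2 ranked it 4288 with a signal of 68.0, and replicate 1 only 20618 with 18.2. Next came the summits 2347 bp and 4055 bp beyond the gene, with signals of 66.2 and 62.9. The first lay in the same intron and the second 75 bp upstream of a TSS of GlcAT-S. Replicate 1 ranked the first 26021 and had no peak at the second. At each of the 6 downstream summits replicate 2 had the better rank or the only peak. The intronic summits, 905 and 1553 bp downstream of the TSS, had signals of 28.6 and 28.8 and were matched in replicate 2 alone (ranks 12374 and 19479). The remaining pooled signals ran from 25.2 to 50.0, and the weakest of them, 1766 bp upstream, had no match in either replicate. At the promoter, only replicate 1 held a summit, 51 bp downstream of the TSS with a signal of 26.2 at rank 10558. Between gcm and gcm2 lay 1 optimal summit, 12467 bp upstream of gcm2 and beyond both windows. Its signal was 142.4 at rank 3282, with ranks of 5115 in replicate 1 and 2615 in replicate 2.

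The pan-glial factor gene repo (FBgn0011701; chr3R:18236192-18239602, plus strand) had all of its 3 pooled summits downstream, near or inside 14-3-3epsilon. This neighbour encodes a phosphoprotein-binding adaptor. The strongest, 2772 bp beyond repo and 157 bp upstream of a TSS of 14-3-3epsilon, had a signal of 72.8 at rank 7439. It was matched in replicate 1 (44.8, rank 5232) and not in replicate 2. The second, 4210 bp beyond repo in an intron of 14-3-3epsilon, had 68.4 at rank 8040, and both replicates held it, at ranks 6661 and 13772. The third lay 19 bp upstream of another TSS of 14-3-3epsilon, with a signal of 33.2. Only replicate 1 had summits elsewhere, 3826 bp upstream (20.0) and in the coding sequence (17.9). No list had a summit within 500 bp of the TSS of repo. An optimal summit missed the window by a short distance. It lay 5334 bp beyond the 3′ end, again inside 14-3-3epsilon, with a signal of 636.1 at rank 475 and ranks of 839 in replicate 1 and 335 in replicate 2.

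The barrier receptor gene moody (FBgn0025631; chrX:2044292-2050120, minus strand) encodes a G protein-coupled receptor of surface glia and was the one member with an optimal promoter peak. The peak covered 2050138 to 2050412, with its summit 153 bp upstream of the 5′-most TSS. Its signal was 486.2 in the optimal and pooled lists, 350.4 in replicate 1 and 140.1 in replicate 2. By rank it stood at 680 of 3921 in the optimal list, 392 of 30000 in replicate 1 and 1559 in replicate 2, so both replicates held it well inside their strongest 3921. The summits of the replicates lay 10 and 12 bp from the optimal summit. Its signal was 2.24 times the list's median, and it ranked 250 among the 1383 optimal summits within 500 bp of any protein-coding TSS. The peak was 275 bp wide, narrower than the commonest width of 404 bp, and 36.6% of optimal peaks were narrower still. It also lies inside an intron of CG4313, a gene on the opposite strand, whose nearest TSS is 2411 bp away. The 201 bases centred on the summit (chrX:2050173-2050373, dm6, read on the minus strand as moody is) are shown because they are the only promoter sequence of a member under an optimal peak, and no base is in capitals because none of the searched motifs was found:
moody promoter summit: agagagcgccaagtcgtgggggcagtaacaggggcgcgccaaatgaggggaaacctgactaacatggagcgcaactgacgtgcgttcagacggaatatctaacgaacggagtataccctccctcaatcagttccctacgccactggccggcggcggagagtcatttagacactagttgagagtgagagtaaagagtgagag

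The second optimal summit in the window of moody belongs to its neighbours by distance. It lay 2830 bp beyond the 3′ end of moody, in an intron of Actn, the alpha-actinin gene, and 150 bp upstream of a TSS of usp, which encodes a partner of the ecdysone receptor. Its signal was 160.3 at rank 2843 in the optimal list, 77.6 at rank 2821 in replicate 1 and 89.2 at rank 2939 in replicate 2. These ranks differ little, unlike those at the promoter of moody. The other 5 pooled summits of moody had signals from 26.7 to 67.1. The strongest of them, 1821 bp beyond the 3′ end, was found in both replicates (ranks 9424 and 9421), as was one 1949 bp upstream (63.1; ranks 5913 and 23000). Another, 1239 bp upstream, was matched in replicate 2 alone. One in the 5′ untranslated exon of moody, with 26.7 at rank 27743, was matched in neither. Replicate 2 alone had a summit near the internal TSS, 483 bp downstream of it, with a signal of 18.8.

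The gene loco (FBgn0020278; chr3R:22619968-22639387, minus strand) encodes a regulator of G protein signalling, which acts with the Moody receptor in surface glia. Its optimal peak lay in an intron, 1746 bp downstream of the most 3′ of its 4 annotated start sites. The signal was 140.8 at rank 3321 of 3921, and 84.7% of the optimal peaks were stronger. Replicate 1 held it with 51.4 at rank 4472, outside its strongest 3921, with a summit 40 bp away. Replicate 2 had no overlapping peak, and its nearest summit was 740 bp away (42.7, rank 8489). Of the 3921 optimal peaks, 164 overlapped a peak of replicate 1 alone, as this one did. The 201 bases around this summit (chr3R:22624788-22624988, dm6, minus strand) are shown for comparison with the other members, with matches to TAATTA and to the overlapping copies of GAGAGAG in capitals:
loco intron summit: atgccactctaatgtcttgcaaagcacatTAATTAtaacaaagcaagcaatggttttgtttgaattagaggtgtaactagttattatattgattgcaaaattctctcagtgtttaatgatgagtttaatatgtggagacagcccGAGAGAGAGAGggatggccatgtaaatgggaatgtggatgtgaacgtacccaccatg

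Replicate 2 placed its strongest loco summits elsewhere in the introns. With 83.0 at rank 3261 it had a summit 529 bp upstream of an internal TSS, where replicate 1 had no peak. With 75.1 at rank 3723 it had another 1395 bp downstream of a different start site. An overlapping peak of replicate 1 (43.2 at rank 5451) had its summit 211 bp from that one. It lay 11 bp from a further summit of replicate 2, with 52.6 at rank 6167. The summits with 83.0 and 75.1 are within the strongest 3921 of replicate 2. Neither of their pooled peaks (90.0 at rank 5671 and 102.6 at rank 4828) is in the optimal list. Introns held 10 of the 11 pooled summits of loco. The eleventh lay 186 bp upstream of the 5′-most TSS, with 57.1 at rank 10109 in the pooled list, 32.4 at rank 7733 in replicate 1 and 39.7 at rank 9505 in replicate 2. It also lies 235 bp upstream of wake, which is transcribed from the opposite strand. The flanks of loco held no pooled summit and no summit of replicate 2, and 2 weak ones in replicate 1 (25.3 and 20.7).

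The strongest optimal peak of all 7 windows lay between nrv2 and nrv1. The gene nrv2 (FBgn0015777; chr2L:6789770-6798862, minus strand) encodes a beta subunit of the sodium-potassium pump, which is made in glia and is also part of septate junctions. Its downstream neighbour on the same strand, nrv1, encodes another beta subunit. The summit lay 2587 bp beyond the 3′ end of nrv2 and 322 bp upstream of the TSS of nrv1, so by distance it is a promoter summit of nrv1. Its signal was 611.0 at rank 501 in the optimal list, 389.6 at rank 348 in replicate 1 and 233.7 at rank 766 in replicate 2. That is 2.82 times the list's median signal, and 12.8% of the optimal peaks were stronger. Replicate 2 split the place into 2 summits, 222 and 422 bp upstream of nrv1 with signals of 233.7 and 175.5, on either side of the pooled summit. Replicate 1 had its main summit 337 bp and a weaker one (55.2) 539 bp upstream. The 201 bases around the optimal summit (chr2L:6787083-6787283, dm6, minus strand) are shown as the sequence under the strongest peak, with none of the motifs found:
nrv1 upstream summit in the nrv2 window: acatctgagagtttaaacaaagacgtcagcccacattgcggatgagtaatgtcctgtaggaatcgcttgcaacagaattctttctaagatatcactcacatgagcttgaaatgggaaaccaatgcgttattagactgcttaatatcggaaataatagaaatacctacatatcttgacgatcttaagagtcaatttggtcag

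The body of nrv2 itself held only weaker summits. The pooled list had 1 at a promoter, 450 bp upstream of the most 3′ of its 4 start sites, with 47.6 at rank 12801, and both replicates matched it at ranks 16669 and 19060. An intronic summit 708 bp upstream of the same TSS had 56.3 at rank 10298, and another, 1907 bp downstream, had 28.6. Replicate 2 held 6 summits in the promoters and introns of nrv2, with signals from 16.2 to 38.5, and replicate 1 held 1, with 20.3. The body of the gene was thus covered mainly by replicate 2. Near the 5′-most TSS no list had a summit. In the downstream flank the pooled list held 7 summits. After the strongest came one 1623 bp beyond nrv2 with 74.1 at rank 7266, which replicate 2 held at rank 4096 and replicate 1 did not. The other 5 had signals from 30.2 to 47.1.

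The septate junction gene Nrx-IV (FBgn0013997; chr3L:12146519-12156990, plus strand), which encodes a neurexin, was the emptiest of the windows. Across 20.5 kb it had 0 summits in the optimal, pooled and replicate 2 lists. Replicate 1 held 1, 1559 bp beyond the 3′ end in an intron of CG9760, with a signal of 17.4 at rank 22349. Of the 1891 protein-coding genes with a window at least as long, 116, or 6.13%, had no pooled summit, and 39.8% had no optimal summit. The nearest optimal summit lay 7833 bp upstream of Nrx-IV and 102 bp upstream of a TSS of ND-SGDH. It had a signal of 124.9 at rank 3834, and replicate 2 had no peak there.

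**Figure D2:**
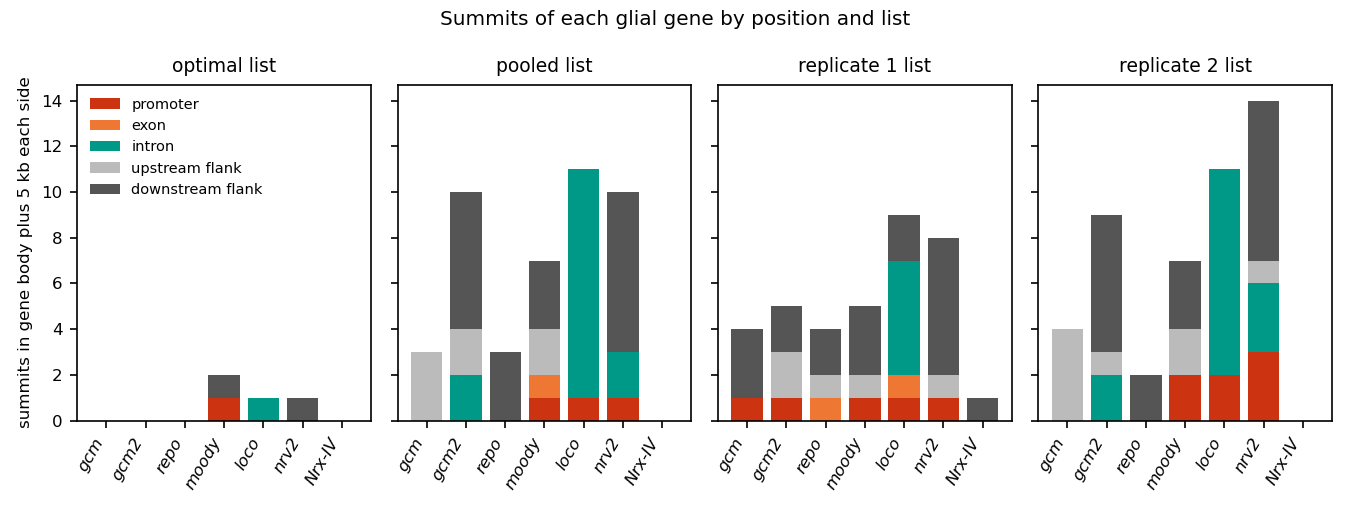
Bars count the summits in the body plus 5 kb each side of each gene, one panel per list, coloured by position relative to that gene. Downstream flanks hold 19 of 44 pooled summits, and introns 14, of which 10 are in loco.

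Most summits of these windows lay outside the transcribed parts of the members. In the pooled list, 19 of 44 lay in downstream flanks (43.2%), 14 in introns (31.8%), 7 in upstream flanks (15.9%), 3 at promoters (6.82%) and 1 in an exon (2.27%). For all protein-coding genes the same shares were 27.9%, 29.5%, 25.7%, 13.8% and 3.14%, with a summit counted for every gene whose window holds it. Replicate 1 had 19 of 36 in downstream flanks (52.8%, beside 29.6% for all protein-coding genes) and replicate 2 had 18 of 47 (38.3%, beside 27.4%). No difference in these shares was tested. Of the 26 pooled flank summits, 20 lay inside another annotated gene or within 500 bp of a TSS of another protein-coding gene. That share, 76.9%, was near the 74.4% for the flank summits of all protein-coding genes. Among the 4 optimal summits, 2 lay within 500 bp of a TSS of another gene, usp and nrv1.

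**Figure D3:**
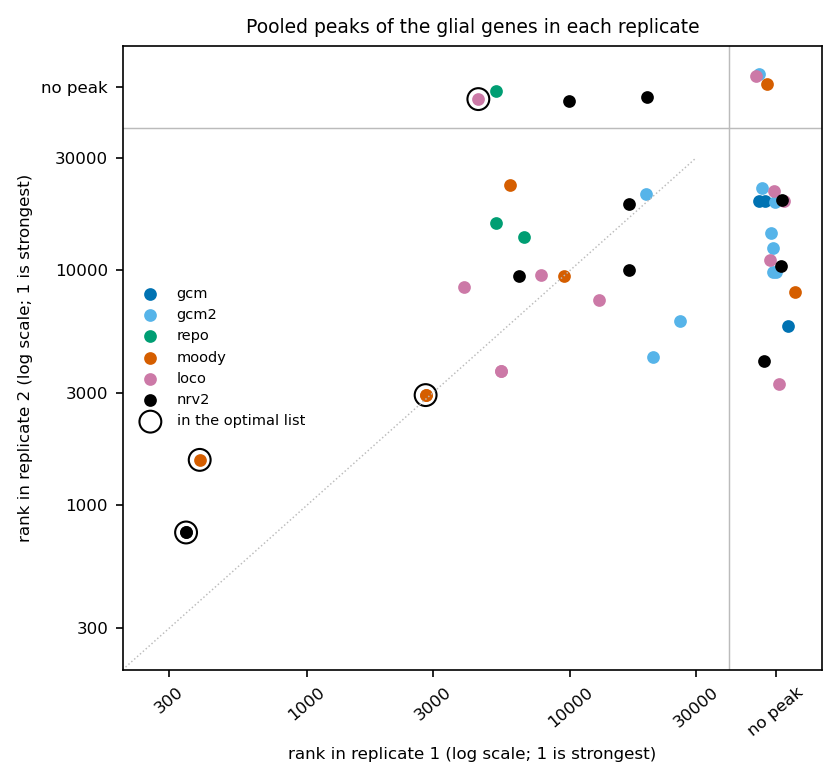
Each of the 44 pooled peaks in the windows is placed by the rank of the strongest overlapping peak in replicate 1 (x) and replicate 2 (y), both on log scales, with a margin for peaks that have none. Rings mark the optimal peaks. Those of moody and nrv2 lie between ranks 348 and 2939 in the replicates, and that of loco lies in the margin of replicate 2.

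Both replicates held 3 of the 4 optimal peaks and 20 of the 44 pooled peaks (45.5%), where a match is an overlap of at least 1 bp. Over whole lists, 94.9% of the 3921 optimal and 50.4% of the 30000 pooled peaks were matched in both. A further 17 of the 44 were matched in replicate 2 alone (38.6%), 4 in replicate 1 alone (9.09%) and 3 in neither (6.82%). Of all pooled peaks the same shares were 27.3%, 15.8% and 6.41%. The 17 were spread over gcm, gcm2, moody, loco and nrv2, and none was at repo. Density followed the lists. The windows held 3.21 optimal summits per 100 kb, beside 2.85 for the arms, and 35.3 pooled ones beside 21.8. The arms were counted over their whole length, the Y included, and not over gene windows, so the 2 densities are not like for like. No difference in density was tested.

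No searched sequence was found at all 4 optimal summits. Windows of 100 bp on either side of each summit were searched on both strands for 9 short motifs. TAATTA, a homeodomain core, was found at loco, 71 bp upstream of the summit, and at the downstream summit of moody, and 15.0% of all optimal summits have it. GAGAGAG was found at loco from 44 bp downstream of the summit in 3 overlapping copies, and 4.28% of all optimal summits have it. None of the 4 held ATGCGGG, the core of the Gcm consensus, which 0.969% of all optimal summits have. The same holds for 6 others. The DREF element TATCGATA is at 1.63% of all optimal summits, and GGTCACAC, the core of the M1BP motif, at 0.995%. The Zelda motif CAGGTAG is at 1.05%, the GATA factor motif GATAAG at 11.9%, the E-box CAGCTG at 7.01% and the E-box CACGTG at 2.3%. The promoter summit of moody had a GC content of 54.7%, and the other 3 had 37.8% each, beside a median of 36.8% for all optimal summits.

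Genes that work with the members were looked up in 4 lists, and 63 of 65 symbols were found. Of the 63 genes, 36 had an optimal summit in their window, 57.1% (exact interval 44.0 to 69.5%), beside 38.3% of all protein-coding genes. Their windows were longer, with a median of 18.4 kb, beside 12.2 kb for all protein-coding genes. Of the 1891 protein-coding genes with a window of at least 20.5 kb, only 39.8% had no optimal summit. The 38.3% is therefore not matched for window length, and no matched share was counted for the 63 genes. The lists were chosen with earlier results of these data known, so the interval covers counting error only. Genes can also share a summit, as ogre and bou do. At their promoters 8 had one, 12.7%, beside 12.2%. Among septate junction genes 12 of 22 had a summit in the window, among moody pathway genes 4 of 9, among other glial genes 9 of 18 and among regulators of glial fate 11 of 14. The last list had a median window of 33.0 kb. No list was tested.

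**Figure D4:**
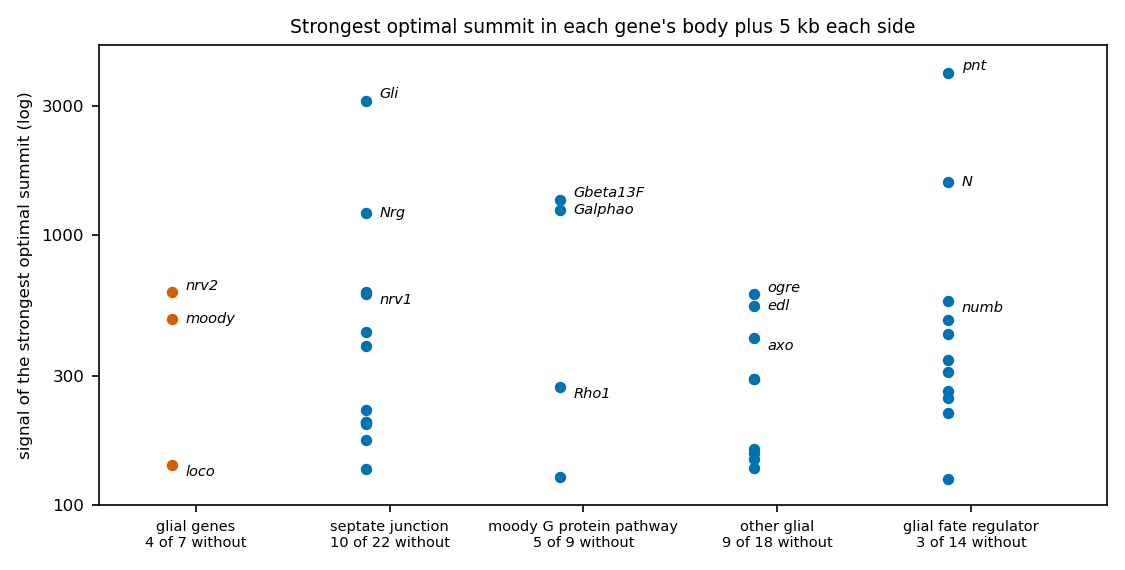
Points give the signal of the strongest optimal summit in the body plus 5 kb of each gene, on a log scale, by list, with the 3 strongest named and the genes without a summit counted under each list. The glial genes reach 611.0 in the window of nrv2, a peak nearer to nrv1 and also plotted for nrv1 among the septate junction genes. Next comes moody at 486.2. Gli at 3118.8 and pnt at 3956.5 lie highest among the related genes.

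Several of the 63 related genes had a stronger optimal summit in their window than any of the 7 members. The related genes are more in number and their windows longer (median 18.4 kb, beside 15.8 kb). A summit in a window was counted whatever its distance from a start site. In the septate junction list, Gli (gliotactin, of tricellular junctions) had 4 summits. The strongest lay 857 bp upstream of the TSS with 3118.8 at rank 60, and ranks of 59 in replicate 1 and 67 in replicate 2. A further one at its promoter had 190.6 at rank 2297. Nrg (neuroglian, a cell adhesion protein) followed with 1203.1 at rank 207 in an intron, and nrv1 with the peak shared with nrv2. Atpalpha, the alpha subunit with which Nrv proteins form the pump, had a promoter summit 250 bp upstream of a TSS. Its signal was 387.3 at rank 940, with ranks of 595 and 1957 in the replicates. As at the promoter of moody, the rank was better in replicate 1. The same held for the promoter summits of all 8 related genes that had one. Over all protein-coding genes, 14.2% had a promoter summit among the 3921 strongest peaks of replicate 1. Among those of replicate 2 it was 10.2%. These are shares of genes, and replicate ranks were not compared at the promoter peaks of all genes. Whether the difference in rank is particular to these genes was not tested. The promoter summit of cold, 83 bp upstream, had 173.4 at rank 2582 and no peak in replicate 2. The genes of the list without an optimal summit in the window were cora, Cont, Lac, sinu, kune, pck, crok, crim, Tsf2 and l(2)gl. Those not yet named that had one were vari, Mcr, bou, Fas3, dlg1, scrib and M6.

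In the moody pathway list, no gene had an optimal promoter summit. The 3 strongest were Gbeta13F (1340.7 at rank 183), a G protein beta subunit, Galphao (1228.0 at rank 203), an alpha subunit, and Rho1 (273.7 at rank 1452), a small GTPase. The summit of Galphao was intronic, that of Gbeta13F in the downstream flank and that of Rho1 in the upstream flank. Galphai, Galphaq, Ggamma1, sqa and pins had none. Replicate ranks were 204 and 167 at Gbeta13F, and 186 and 209 at Galphao.

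Among other genes of glia, promoter summits were found at htl, the FGF receptor, 349 bp upstream with 136.7 at rank 3430, and at ana, 184 bp upstream with 147.9 at rank 3127. The strongest summits in the windows were those of ogre (600.8), which encodes an innexin, edl (544.4), which encodes a regulator of ETS factors, and axo (413.2). The summit of axo lay in its downstream flank, 56586 bp from its nearest TSS. That of ogre is also the summit counted for bou in the septate junction list. The glutamate transporter genes Eaat1 and Eaat2, the engulfment receptor gene drpr and the surface glia transporter gene Mdr65 had none. The same held for wrapper, alrm, zyd, Gat and Cyp4g15. Among the regulators, pnt, an ETS factor downstream of Egfr, had 5 summits, the strongest intronic with 3956.5 at rank 49. The receptor gene N had 4, the strongest with 1568.2 at rank 148. At promoters, numb, which encodes an inhibitor of Notch, had 569.5 at rank 552, and spi, which encodes a ligand of Egfr, had 429.9 at rank 812. In the list, ttk, hkb and wg had no optimal summit.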

How the data were processed

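Per the labels, the peak lists are narrowPeak tables on dm6 from ChIP-seq of 2 biological replicates. Per the file records deposited with the samples, each replicate list came from the alignment of that replicate and a control, the pooled list on the 2 alignments joined, and the optimal list derived from those 3 by the irreproducible discovery rate. The sources used here give no aligner, peak caller or threshold. The deposited signal per peak (column 7) is the caller's value. The deposited -log10 q values were not used. Depth per sample is unknown.

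A summit is the peak start plus the deposited offset, written from 1. Genes and start sites came from Ensembl release 115, whose assembly is that of the NCBI sequence used. All peaks lay within the arms, and 12 of 12 start codons of members read ATG. Positions were classed as promoter (within 500 bp of an own TSS), then exon, intron or flank. Counting was tested on simulated summits. Calculations ran in Python 3.11.15 with pandas 2.3.3, NumPy 2.4.6, SciPy 1.17.1 and, for figures, Matplotlib 3.10.9.

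Members, related lists and motifs were chosen with earlier results of these data known. Of each related list, genes with an optimal promoter summit, the 3 with the strongest summit and all genes without one are named. The choice to name those without one was made after their values were seen. The symbols aka and Mlck were not matched. The sequence at the downstream summit of moody is not shown, because it overlaps an untranslated region of usp. Alternatives varied the list, the flank, the promoter window and the match.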

Additional observations from a re-analysis of the deposited data

How the results depend on the processing

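The count of members with an optimal summit was 3 and lay between 2 and 3 when the 3921 strongest peaks of a single replicate were used (background 34.9% without replicate 1 and 40.7% without replicate 2). Without replicate 2 it was loco that had no summit, and without replicate 1 loco was counted through summits other than its optimal one. The number of summits, 4 in the optimal list, ranged from 3 to 6, that of members with a promoter summit stayed at 1 (moody each time, background 10.2% and 14.2%), and that of related genes ranged from 33 to 37. The counts moved with the width of the flank and the depth of the list. With gene bodies only, 1 member (loco, background 10.7%) held 1 summit, and 23 related genes had one. With flanks of 2 kb there were 2 summits at 2 members (background 26.2%). With 10 kb there were 7 summits at 6 members (background 53.1%), with gcm, repo and Nrx-IV added. Among the 1960 strongest optimal peaks 2 summits were left, at 2 members (background 24.4%). Among the 7842 strongest pooled peaks there were 12 at 6 members (background 52.6%). Leaving out summits within 500 bp of a TSS of another gene, 2 were left, at the promoter of moody and in loco. In the related lists that setting left 29 genes with a summit, beside 36. The share of all protein-coding genes was not counted for that setting, so these counts have no background. Promoter windows of 250 and 1000 bp and the other definitions of a match gave counts within 1.5 times the main ones. No paired analysis was possible because the samples form 1 group. With 7 genes and 2 replicates, no share of the 7 genes can be told from the background by its interval, and unknown depth limits what an absent peak means.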

Other observations

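Of the 36 summits of replicate 1 in the windows of the members, 4 (11.1%) lay in coding or untranslated exon sequence of a member, near the 10.5% for all protein-coding genes in that list. Replicate 2 had 1 of 47 (2.13%), beside 6.5% for all protein-coding genes. The 4 were at gcm, gcm2, repo and loco, with a GC content from 53.7 to 61.7% in the 201 bases around each. None of them was matched by a peak of replicate 2 or by a pooled peak. The median GC content over all summits in the pooled list was 40.8%, beside 42.8% for replicate 1 and 40.3% for replicate 2. These medians cover summits of every position, so they are not a like baseline for summits in exon sequence. The part of base composition in these summits was not tested.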
